A study of Mus musculus with 2 samples.

Results

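Cone photoreceptors were taken from a control and a Mettl3-CKO single-cell library of the mouse retina by the genes they carried. A cell was counted as a cone when it held at least 1000 UMIs (unique molecular identifiers, each marking 1 captured RNA molecule) outside the mitochondrial genes and a UMI of at least 3 of 6 cone genes, Opn1sw, Opn1mw, Arr3, Gnat2, Pde6h and Pde6c. This gave 213 cones among 6330 cells of that depth, 98 of 3541 in the control library and 115 of 2789 in the Mettl3-CKO library. The study removed Mettl3, the enzyme that places m6A, a methyl mark on adenosines in RNA. Mettl3-CKO pups carried Six3-Cre and floxed Mettl3 (Six3-Cre+; Mettl3 floxed/floxed), and the Cre of this transgene acts in retinal progenitor cells from embryonic stages on. Control pups, labelled Ctrl, came from the same litter, and their alleles are not given further in the sources used here. Each library pooled 2 retinas from 2 pups at p7 (postnatal day 7), so each genotype had 1 library, no test between genotypes exists, and every interval below is a 95% interval that covers counting error only. The deletion was described for the central retina while whole retinas were dissociated, so cells of the periphery that kept Mettl3 can be among those counted.

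Cones are the photoreceptors of daylight and colour vision. In darkness their cation channels are held open by cyclic GMP. Light changes an opsin, the opsin activates a cone transducin, the transducin releases a phosphodiesterase that breaks down cyclic GMP, and arrestin ends the response. Mouse cones express a short-wavelength opsin (Opn1sw), a medium-wavelength opsin (Opn1mw) or both, along a gradient across the retina, and the medium-wavelength opsin comes up later under thyroid hormone acting through its receptor Thrb. Cones leave the cell cycle before birth in the mouse, while most rods are made around birth, and at p7 the outer segments that hold the phototransduction proteins are still growing.

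Mettl3 (ENSMUSG00000022160, chr14:52294841-52305128, minus strand, build GRCm38) was counted in the cones of both libraries. It was at 38.7 CPM (UMIs of the gene per 1000000 UMIs outside mitochondrial genes) in control cones (interval 26.8 to 54.0, 34 UMIs) and at 27.2 CPM in Mettl3-CKO cones (19.8 to 36.5, 44 UMIs), a ratio of 0.704 (0.440 to 1.13). In rods it was at 42.1 and 34.5 CPM, a ratio of 0.820 (0.676 to 0.992). A lower Mettl3 level was thus not detectable in cones at this depth. The library reads the 3′ end of transcripts, which can remain when an internal part of a gene is deleted, so these values do not check the deletion. The 3′ end of Mettl3 also overlaps that of Tox4 on the other strand.

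Of the barcodes in the matrices, 3994 of 5995 (control) and 3109 of 6992 (Mettl3-CKO) were complete in the files used here and the others were not analysed here. Cells of at least 1000 UMIs had a median of 4830 and 5667 UMIs. The libraries shared 5 barcodes among complete cells, none of them a cone. A doublet score placed 6 cones of each library among the predicted doublets (192 and 174 cells in all). The control library held almost no Xist, the RNA of the inactive X chromosome, while the Mettl3-CKO library held Xist in some cells and Y-linked RNA in others. In the Mettl3-CKO library, 175 of 2789 cells (6.27%, interval 5.40 to 7.24) held both 2 or more Xist UMIs and a UMI of a Y-linked gene, and in the control library 0 of 3541 did.

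Most of the cells chosen carried the markers well above the other cells, and some did not. The summed level of the 6 markers had a median of 16133 CPM in control and 8932 CPM in Mettl3-CKO cones, and of 0 CPM in the rods of either library. The lowest cone held 599 and 213 CPM, while the highest rod held 7194 and 2568 CPM. A Mettl3-CKO cell that met the rule with 3 cone marker UMIs held 387 UMIs over a list of 15 rod genes and 12070 CPM of Nrl and Nr2e3, which goes against the name cone. In the control library 2842 cells held none of the 6 markers, 561 held 1, 40 held 2, 18 held 3, 30 held 4, 46 held 5 and 4 held all 6. In the Mettl3-CKO library these numbers were 2173, 447, 54, 15, 43, 55 and 2. Just outside the rule, control cells with 2 markers had 424 CPM of Opn1sw and 173 CPM of Pde6h, and just inside it those with 3 markers had 4119 and 4105 CPM, with a median of 9.5 and 2.5 UMIs per cell. In the Mettl3-CKO library cells with 2 markers had 141 CPM of Opn1sw and 72.9 CPM of Pde6h, and those with 3 had 1959 and 1832 CPM, with a median of 8 and 4 UMIs per cell. The levels of cells with 3 markers thus rested largely on a part of these cells. Opn1sw had a UMI in 97 of 98 and in 112 of 115 cones, against 172 of 1310 control rods (13.1%, interval 11.3 to 15.1) and 145 of 837 Mettl3-CKO rods (17.3%, 14.8 to 20.1), where median depths were 8388.5 and 12717 UMIs in cones and 4272 and 4713 in rods. In microglia-like cells, which should lack it, Opn1sw had a UMI in 0 of 21 and in 1 of 21 cells. Rods were cells with at least 4 of 6 rod markers (among them Nrl, Nr2e3, Gnat1, Pde6b and Sag) and under 3 cone markers, and microglia-like cells had at least 4 of 7 microglial markers. All of these values follow from the way cells were chosen and are a description.

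The bases in front of the cone genes are shown because the results below turn on these genes, and because Crx and Otx2, the homeobox factors of photoreceptors, are known to bind a short core that 4 of the 6 hold in this window (Opn1sw, Arr3, Gnat2 and Guca1a). Each sequence is the 150 bases before the gene's start in RefSeq on GRCm38.p6, 5′ to 3′ on the gene's strand, and capitals mark the core TAATC or its reverse complement GATTA.
Opn1sw, chr6:29380514-29380663, minus strand: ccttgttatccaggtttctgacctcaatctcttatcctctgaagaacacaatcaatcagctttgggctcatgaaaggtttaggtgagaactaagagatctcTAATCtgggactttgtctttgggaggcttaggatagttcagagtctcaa
Arr3, chrX:100605347-100605496, plus strand: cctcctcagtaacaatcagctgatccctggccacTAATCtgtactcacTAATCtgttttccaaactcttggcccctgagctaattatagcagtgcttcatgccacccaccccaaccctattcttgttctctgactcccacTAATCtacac
Gnat2, chr3:108092916-108093065, plus strand: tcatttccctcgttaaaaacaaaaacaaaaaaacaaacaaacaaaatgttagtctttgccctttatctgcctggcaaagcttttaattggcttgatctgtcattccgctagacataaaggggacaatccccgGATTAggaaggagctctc
Guca1a, chr17:47400607-47400756, minus strand: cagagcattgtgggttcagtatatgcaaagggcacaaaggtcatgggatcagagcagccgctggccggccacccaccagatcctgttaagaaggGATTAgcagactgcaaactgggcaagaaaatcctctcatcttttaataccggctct
Pde6h, chr6:136954373-136954522, plus strand: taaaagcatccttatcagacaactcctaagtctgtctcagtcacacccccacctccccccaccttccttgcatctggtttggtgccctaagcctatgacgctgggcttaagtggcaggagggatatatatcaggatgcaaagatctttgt
Opn1mw, chrX:74127316-74127465, plus strand: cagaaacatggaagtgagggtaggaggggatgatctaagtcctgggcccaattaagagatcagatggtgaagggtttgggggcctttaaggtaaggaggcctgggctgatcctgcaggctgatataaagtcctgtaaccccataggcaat
Arr3 held 3 cores, at 116, 102 and 10 bases before the start, and Opn1sw held 1, at 49 bases. Gnat2 held 1 core in reverse at 18 bases, and Guca1a held 1 in reverse at 56 bases. The search covered both strands, and no 2 matches overlapped. Of 32851 RefSeq windows of this length, 11.7% held a core and 1.25% held 2 or more. A match is a description of the letters and not of a bound site, and of 8 cone genes looked for, 6 had an entry (the others were Pde6c and Gngt2). The windows of Opn1sw, Gnat2 and Pde6h lie inside the bounds of these genes in GENCODE M21, which places their starts further upstream than RefSeq.

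Cones made up a larger part of the Mettl3-CKO library than of the control library. They were 2.77% of control cells (98 of 3541, interval 2.25 to 3.36) and 4.12% of Mettl3-CKO cells (115 of 2789, 3.42 to 4.93), a ratio of shares of 1.49 (1.14 to 1.94). The direction depended on which cells were counted. Without cones that held 4 or more of the 6 rod markers, the shares were 1.84% (65 cones) and 1.51% (42 cones), a ratio of 0.820 (0.558 to 1.21). Among cells of at most 10000 UMIs the ratio was 0.868 (0.600 to 1.26), and without the cells that held both Xist and Y-linked UMIs it was 1.16 (0.871 to 1.55). When each cell was thinned to 1000 UMIs, 70 control and 60 Mettl3-CKO cells met the rule, a ratio of 1.09 (0.774 to 1.53). With 2 or 4 markers required in place of 3, the ratio was 1.55 (1.25 to 1.94) and 1.59 (1.19 to 2.12). Without predicted doublets it was 1.52 (1.15 to 1.99).

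Cones of the Mettl3-CKO library were deeper, and more rod markers were detected in them. Over 10000 UMIs were found in 27 of 98 control cones (27.6%) and in 70 of 115 Mettl3-CKO cones (60.9%), against 4.43% and 16.6% of rods. At least 4 rod markers were detected in 33 of 98 control cones (33.7%, interval 24.4 to 43.9) and in 73 of 115 Mettl3-CKO cones (63.5%, 54.0 to 72.3). All 6 rod markers were detected in 0 control and 12 Mettl3-CKO cones. A deeper cell can show more markers at the same level. Scaled for depth, the list of 15 rod genes differed less, at 9559 and 11523 CPM over the summed cones. Its median over single cones was 8588 and 9983 CPM. Cones with under 4 rod markers are called rod-poor here and the others rod-rich. In the Mettl3-CKO library Xist and Y-linked UMIs stood in 1 cell in 29 of 73 rod-rich cones (39.7%, 28.5 to 51.9), in 2 of 42 rod-poor cones (4.76%, 0.582 to 16.2) and in 100 of 837 rods (11.9%). Among Mettl3-CKO rods this share was 0.588% at 3000 to 6000 UMIs (3 of 510) and 41.0% over 8000 UMIs (87 of 212). The control library held too little Xist to show this pair (2 cells with Xist alone), so the same reading is not to be had there, and the part of 2 cells captured together in the values below was not tested. Rod-poor cones had close median depths in both libraries, 8029 and 8432 UMIs. They were not free of RNA of other cells. In rod-poor cones 10 cell cycle genes summed to 111 CPM in the control and 463 CPM in the Mettl3-CKO library, and 9 Müller markers to 601 and 1305 CPM.

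**Figure D1:**
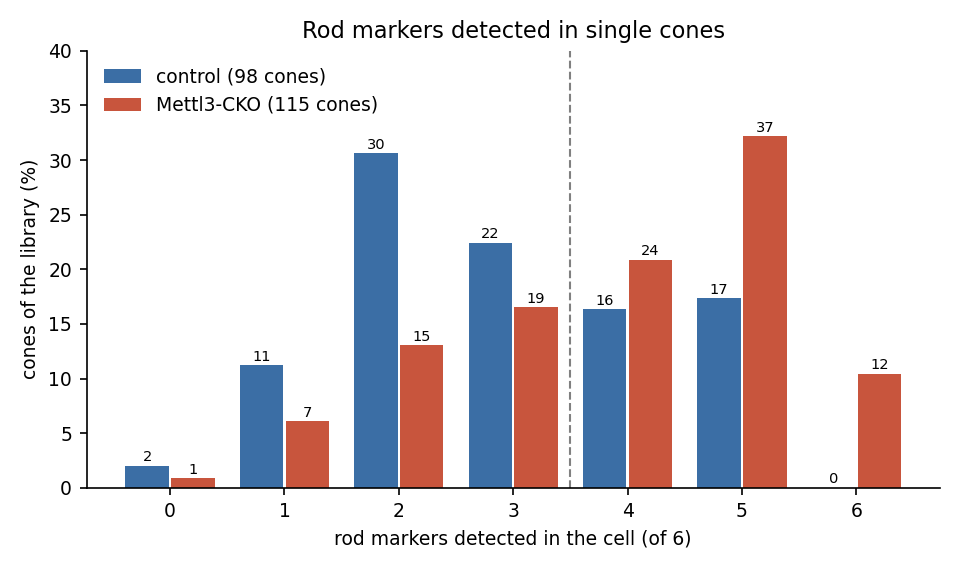
Share of the cones of each library (vertical axis, %) by the number of the 6 rod markers with a UMI (horizontal axis), with the number of cones over each bar; the dashed line separates rod-poor from rod-rich cones. Control cones peak at 2 rod markers (30 cones) and Mettl3-CKO cones at 5 (37 cones).

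Transcription factors of the rod fate stood higher in Mettl3-CKO cones. Nrl, the leucine zipper factor that sets the rod fate, was at 408 CPM (interval 367 to 453) in control cones and 840 CPM (796 to 886) in Mettl3-CKO cones, a ratio of 2.06 (1.83 to 2.32). Nr2e3, the nuclear receptor that represses cone genes in rods, was at 984 and 2034 CPM, a ratio of 2.07 (1.92 to 2.23). Both were lower in Mettl3-CKO than in control rods, with ratios of 0.877 and 0.871. The summed Nrl and Nr2e3 level of single cones had a median of 418 CPM in the control library and 1784 CPM in the Mettl3-CKO library, against 7720 and 7426 CPM in rods. It was 1000 CPM or more in 29 of 98 control cones and in 70 of 115 Mettl3-CKO cones, and 13 and 8 cones held no UMI of either gene. Rod-poor cones are chosen in part on these genes and are given as a description, with Nr2e3 at 277 and 255 CPM and Nrl at 143 and 201 CPM.

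**Figure D2:**
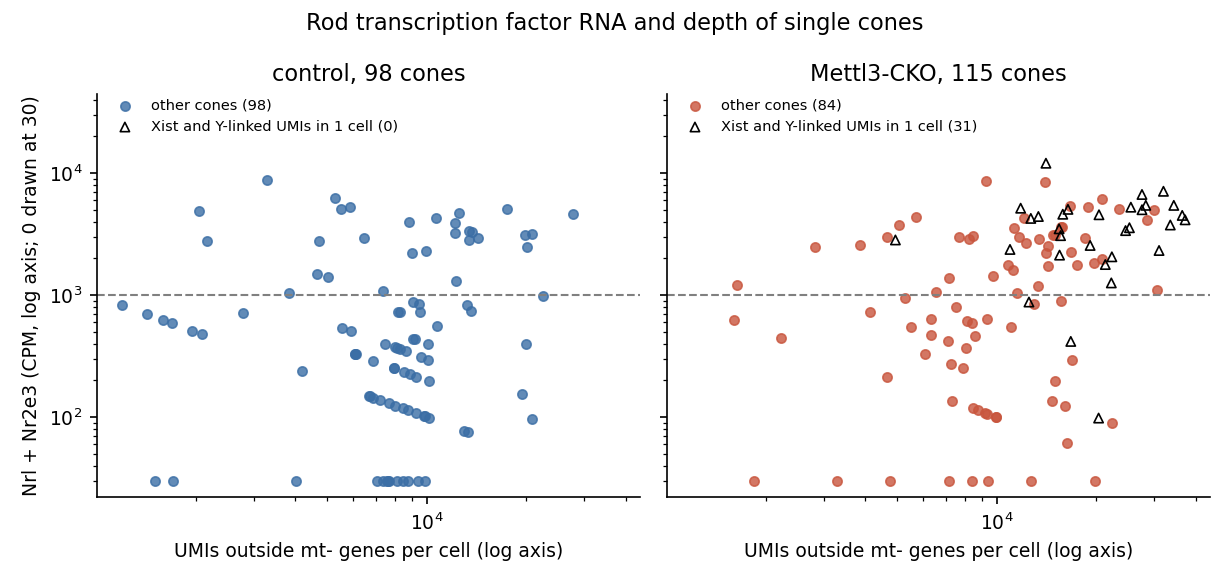
Summed Nrl and Nr2e3 level of each cone (vertical log axis, CPM, with 0 drawn at 30) against its UMIs outside mitochondrial genes (horizontal log axis), 1 point per cone, in the control (left) and Mettl3-CKO (right) library; triangles are cones with Xist and Y-linked UMIs in the same cell and the dashed line is 1000 CPM. The 31 triangles are all in the Mettl3-CKO library, and most of them lie over 10000 UMIs and over the line.

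The other rod genes fell into 2 groups. Genes were called higher at a ratio of at least 1.5 and lower at a ratio of at most 1/1.5, among genes with at least 50 UMIs over the cones of both libraries. This rule called 537 of 6903 genes higher (7.78%) and 257 lower (3.72%), and the median log2 ratio over all 6903 was 0.03. Of 15 rod genes, 12 reached 50 UMIs, 8 were called higher and 0 lower, with a median log2 ratio of 0.98. Pde6b, a catalytic subunit of the rod phosphodiesterase, had a ratio of 2.14 (1.73 to 2.68), and the rod channel subunits Cnga1 and Cngb1 had ratios of 2.02 (1.5 to 2.74) and 2.93 (2.29 to 3.79). Gnb1, the beta subunit of rod transducin, was at 392 and 753 CPM, a ratio of 1.92 (1.70 to 2.17). Sag, Pde6g and Gngt1 had ratios of 0.926, 0.936 and 0.898. In control cones Sag stood at 0.556 of its level in rods and Pde6g at 1.45, while Nrl, Nr2e3, Gnb1 and Pde6b stood between 0.165 and 0.198 of theirs. In the Mettl3-CKO library the latter 4 stood between 0.437 and 0.466 of their level in rods. In rod-poor cones 7 rod genes reached 50 UMIs, 0 were called higher and 1 lower, with a median log2 ratio of -0.11. This is a description, since rod-poor cones were chosen in part on these genes.

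Of the 6 genes that chose the cones, the 5 that reached 50 UMIs were at lower levels (in CPM) in the Mettl3-CKO library, which is given as a description. Opn1mw was at 9.09 and 9.27 CPM, from 8 and 15 UMIs. Opn1sw (ENSMUSG00000058831, chr6:29376671-29388468) was at 6645 CPM in control cones and 3716 CPM in Mettl3-CKO cones, a ratio of 0.559 (0.539 to 0.580). Pde6h, the inhibitory subunit of the cone phosphodiesterase, was at 8294 and 4283 CPM (0.516, 0.50 to 0.534), and Pde6c, its catalytic subunit, at 332 and 208 CPM (0.627). Gnat2, the alpha subunit of cone transducin, was at 1063 and 694 CPM (0.653), and Arr3, cone arrestin, at 334 and 158 CPM (0.473, 0.399 to 0.562). Counted as UMIs per cone, the libraries were closer, but such counts are not scaled for depth, which had a median of 8388.5 and 12717 UMIs. The median cone held 44 Opn1sw UMIs (0 to 336) in the control and 36 (0 to 221) in the Mettl3-CKO library, 71 and 56 Pde6h UMIs, and 9 and 9 Gnat2 UMIs. In rod-rich cones these medians were 64 and 34 for Opn1sw, 84 and 62 for Pde6h, and 9 and 10 for Gnat2. In rod-poor cones the ratio was 0.912 (0.862 to 0.965) for Opn1sw, 0.869 (0.761 to 0.992) for Gnat2 and 0.758 (0.590 to 0.968) for Pde6c, while it stayed at 0.620 (0.589 to 0.652) for Pde6h and 0.409 (0.311 to 0.533) for Arr3. The summed level of the 6 genes had a median over cells of 16174 and 12070 CPM in rod-poor cones, and of 15684 and 6556 CPM in rod-rich cones.

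In most cones at p7 only the short-wavelength opsin was detected. Opn1sw without Opn1mw was found in 91 of 98 control cones (92.9%, interval 85.8 to 97.1) and in 109 of 115 Mettl3-CKO cones (94.8%, 89.0 to 98.1). Both opsins were found in 6 control cones (6.12%, 2.28 to 12.9) and 3 Mettl3-CKO cones (2.61%, 0.541 to 7.43), and 1 and 3 cones held neither. No cone held UMIs of Opn1mw alone (0 of 98 and 0 of 115), which allows a share of up to 3.69% and 3.16% of cones with such UMIs (exact 95% limits) and does not bound the share that expresses it. At 1000 UMIs per cell, cones with neither opsin detected went from 1.0% to 11.2% in the control and from 2.61% to 21.7% in the Mettl3-CKO library. Opn1mw (ENSMUSG00000031394, chrX:74127464-74150760) had 8 UMIs over control cones, of which no cell held more than 2, and 15 over Mettl3-CKO cones, of which 13 lay in 1 cell. That cell held 7 Opn1sw UMIs and 1 of the 6 rod markers. No rod held an Opn1mw UMI, in 1310 and 837 cells.

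Of the 12 further phototransduction genes, which the choice of cells did not use, most stood lower in the Mettl3-CKO cones by less than the size of a call. All 12 reached 50 UMIs, 1 was called higher and 1 lower, 9 had a ratio below 1, and the median log2 ratio was -0.36. Guca1a, the calcium sensor of guanylate cyclase, was at 2279 CPM in control and 1211 CPM in Mettl3-CKO cones, a ratio of 0.531 (0.499 to 0.566). Its count per cone, not scaled for depth, had a median of 21.5 and 16 UMIs. Rcvrn, recoverin, a calcium sensor of photoreceptors, was at 2901 and 1958 CPM (0.675, 0.641 to 0.711). The beta and gamma subunits of cone transducin, Gnb3 and Gngt2, were at 2998 and 2272 CPM (0.758) and at 6713 and 5901 CPM (0.879, 0.851 to 0.908). The cone channel subunits Cnga3 and Cngb3 had ratios of 0.781 (0.562 to 1.09) and 0.736 (0.633 to 0.856). Kcnv2, a potassium channel subunit of photoreceptor inner segments, was at 28.4 and 51.3 CPM (1.80, 1.14 to 2.95), from 25 and 83 UMIs.

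In rod-poor cones most of these differences were smaller. This subset had its own background, with 188 of 3551 genes called higher (5.29%) and 191 lower (5.38%) and a median log2 ratio of -0.01. Of the 12 genes 9 reached 50 UMIs there, 0 were called higher and 1 lower, and the median log2 ratio was -0.08. Gngt2 was at 6807 and 6565 CPM (0.964, 0.916 to 1.0), Gnb3 at 0.913 (0.846 to 0.986) and Cnga3 at 1.04 (0.617 to 1.74) of the control level. Guca1a stayed at 0.664 (0.603 to 0.731) and Rcvrn at 0.80 (0.740 to 0.865). Guca1a in rods had a ratio of 1.15 (0.689 to 1.93), from levels under 10 CPM.

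**Figure D3:**
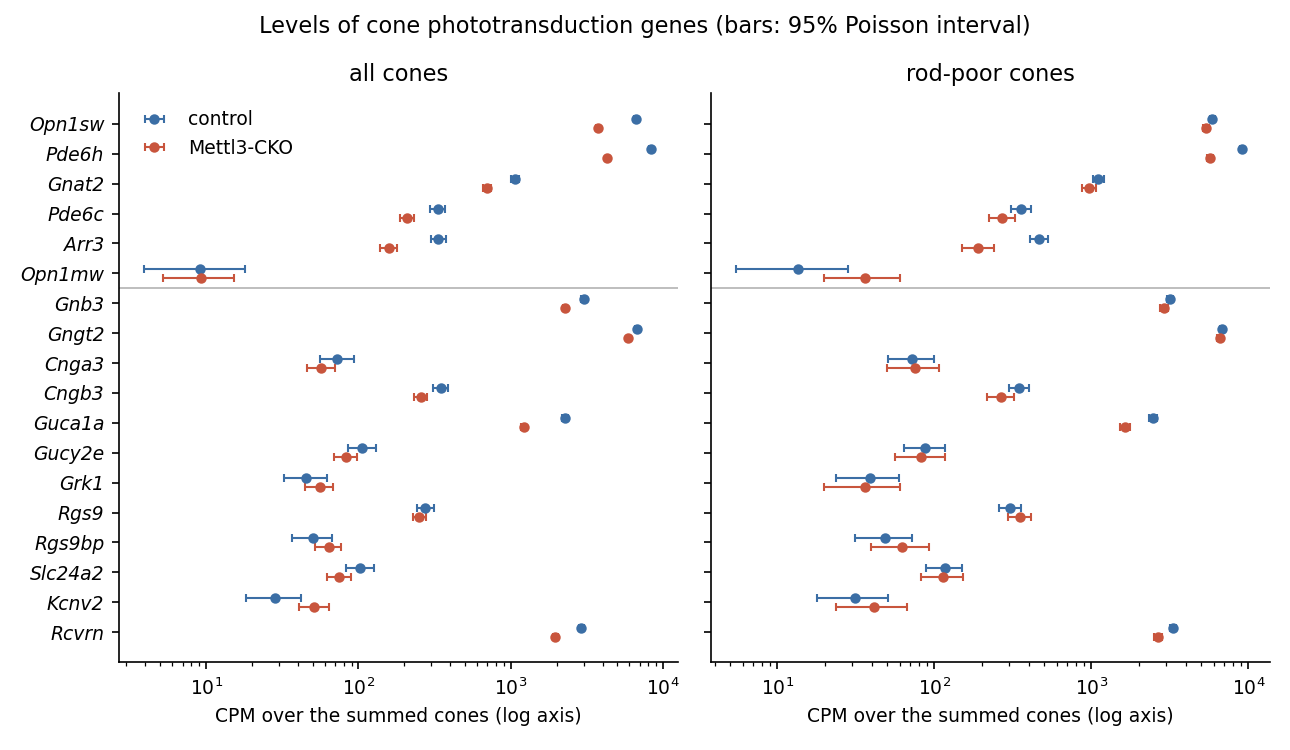
Levels of the 6 cone rule genes (above the line) and 12 further cone phototransduction genes (below it) over the summed cones of each library, in CPM on a log axis, for all cones (left) and rod-poor cones (right); bars are 95% Poisson intervals. In all cones most Mettl3-CKO points lie left of the control points (Opn1sw 3716 against 6645 CPM), and in rod-poor cones the Opn1sw points lie closer (5381 against 5898 CPM), while those of Arr3 and, from few UMIs, of Opn1mw lie further apart.

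Most transcription factors of the cone and photoreceptor fates differed between the libraries by less than the size of a call, with Otx2 called higher and Sall3 called lower. Of 15 such factors 13 reached 50 UMIs, 1 was called higher and 1 lower, and the median log2 ratio was 0.18. Thrb, the thyroid hormone receptor that cones need for medium-wavelength opsin, was at 372 and 341 CPM (0.918, 0.799 to 1.06), and Rxrg, a retinoid receptor that keeps short-wavelength opsin off, at 149 and 131 CPM (0.880, 0.704 to 1.10). Crx, the homeobox factor shared by rods and cones, was at 711 and 773 CPM (1.09, 0.988 to 1.20). Otx2, which acts above Crx, was at 845 and 1369 CPM (1.62, 1.49 to 1.76) in all cones and at 841 and 909 CPM (1.08, 0.936 to 1.25) in rod-poor cones. In control rods Otx2 stood at 1513 CPM. Sall3, a zinc finger factor linked to the cone fate, was at 156 and 101 CPM (0.651, 0.516 to 0.823), and its ratio in rod-poor cones was 0.664 (0.451 to 0.964). Rorb, an orphan nuclear receptor of photoreceptor fate, was at 597 and 857 CPM (1.44, 1.30 to 1.59) and kept a ratio of 1.36 (1.14 to 1.61) in rod-poor cones. Of 6 genes that handle thyroid hormone, 3 reached 50 UMIs and none was called. The receptor Thra had a ratio of 0.951 (0.785 to 1.15), and the deiodinases Dio2 and Dio3 had no UMI in a cone.

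Among genes of the outer segment and its connecting cilium, Rom1 and Rp1 were called higher, and both stood higher in rods than in cones. Of 17 genes 15 reached 50 UMIs, 2 were called higher and 0 lower, and the median log2 ratio was 0.27. Rom1, a disc rim protein, was at 911 and 1774 CPM (1.95, 1.80 to 2.11), and Rp1, a microtubule protein of the outer segment, at 537 and 1167 CPM (2.18, 1.97 to 2.41). Control rods held 3228 and 1568 CPM of these genes. In rod-poor cones their ratios were 1.26 (1.06 to 1.5) and 1.41 (1.12 to 1.77). Prph2, the partner of Rom1, had a ratio of 1.21 (1.09 to 1.33). Aipl1, the chaperone of the phosphodiesterase, was at 1189 and 806 CPM (0.678, 0.624 to 0.736), with 0.875 (0.775 to 0.987) in rod-poor cones and 0.671 (0.606 to 0.742) in rods. Of the 14 genes that reached 50 UMIs in rod-poor cones 0 were called in either direction, with a median log2 ratio of 0.05.

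Synaptic genes did not reach the size of a call in any of the 14 of 15 that had 50 UMIs, with a median log2 ratio of -0.07. Slc17a7, the glutamate transporter of synaptic vesicles, was at 434 and 370 CPM (0.852, 0.749 to 0.972). Cabp4, a calcium-binding regulator of the calcium channel at photoreceptor terminals, was at 142 and 114 CPM (0.805, 0.638 to 1.0). Cacna1f, the pore subunit of that channel, was at 50 and 51.3 CPM (1.03, 0.703 to 1.51).

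Of 18 glycolysis genes 13 had a ratio below 1, with 0 called higher, 4 called lower and a median log2 ratio of -0.27. Over all genes in cones 3178 of 6903 had a ratio below 1 and 257 were called lower. The direction was shared by rods, where 14 of the 18 had a ratio below 1, beside 4675 of 10276 genes over all. In rods 0 of the 18 were called higher and 1 lower, beside 150 of all 10276 called lower, with a median log2 ratio of -0.12. Aldoc was at 39.8 CPM in control and 24.9 CPM in Mettl3-CKO rods. The genes called lower were Hk2 (0.515, 0.348 to 0.761), a hexokinase, Pfkm (0.408, 0.238 to 0.691), a phosphofructokinase, Aldoc (0.650, 0.420 to 1.01), an aldolase, and Eno2 (0.648, 0.512 to 0.819), the neuronal enolase. Hk2 rested on 57 and 54 UMIs and Pfkm on 36 and 27. In rod-poor cones 14 of the 18 reached 50 UMIs, 1 was called higher, Slc2a1, a glucose transporter (71.7 and 113 CPM, 1.58, 0.997 to 2.51), and 1 lower, Eno2. Eno2 had a ratio of 0.522 (0.338 to 0.789), Hk2 0.859 (0.479 to 1.51), Pfkm 0.559 (0.212 to 1.34, from 19 and 8 UMIs) and Aldoc 1.06 (0.559 to 1.99). Gapdh, the dehydrogenase in the middle of the pathway, was at 2375 and 2089 CPM (0.880, 0.833 to 0.929), and Ldha, which makes lactate, at 1939 and 2047 CPM (1.06, 0.996 to 1.12). In rod-poor cones Ldha was at 1759 and 1393 CPM (0.792, 0.711 to 0.882), and in rods at 3460 and 2941 CPM (0.850).

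The partners of Mettl3 in the m6A writer complex were close between the libraries. All 8 writer genes reached 50 UMIs, 1 was called higher and 0 lower, with a median log2 ratio of 0.15. Mettl14, which forms the catalytic pair with Mettl3, was at 27.3 and 22.9 CPM (0.838, 0.488 to 1.46), and Zc3h13, a scaffold of the complex, at 109 and 166 CPM (1.52, 1.20 to 1.94). Of 7 genes for readers and erasers of m6A 1 was called higher and 0 lower. This was Ythdf2, a reader that leads marked RNA to decay, at 67.1 and 112 CPM (1.68, 1.24 to 2.29), with 1.21 (0.728 to 2.02) in rod-poor cones and 1.36 (1.21 to 1.52) in rods.

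The m6A-tagged genes that the study had picked out in other cells of these libraries stood higher in Mettl3-CKO cones. The study chose these 8 genes for being higher in Mettl3-CKO progenitors and Müller glia, so their direction here is not independent evidence. Of the 8, 5 reached 50 UMIs, all 5 had a ratio above 1, 4 were called higher and 0 lower, with a median log2 ratio of 0.67 beside 0.03 over all genes. Nxt1, an mRNA export factor, was at 18.2 CPM (16 UMIs) in control and 47.6 CPM (77 UMIs) in Mettl3-CKO cones, a ratio of 2.62 (1.51 to 4.80). Ckap4, a membrane protein of the endoplasmic reticulum, was at 63.7 and 115 CPM (1.81, 1.33 to 2.48). Bcl7a, a chromatin remodelling subunit, was at 100 and 159 CPM (1.59, 1.24 to 2.05). Apex1, a DNA repair endonuclease, was at 58.0 and 87.1 CPM (1.5, 1.08 to 2.11). Zfp292, a zinc finger factor, was at 169 and 224 CPM (1.32, 1.09 to 1.61).

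The direction of these genes was shared by rod-poor cones and by rods. In rod-poor cones 4 of the 8 genes reached 50 UMIs, 3 were called higher and 0 lower, with a median log2 ratio of 0.71. Zfp292 had a ratio of 1.57 (1.15 to 2.15) there, Apex1 1.81 (1.11 to 3.01), Bcl7a 1.72 (1.16 to 2.55) and Ckap4 1.25 (0.747 to 2.09). In rods all 8 genes reached 50 UMIs, 5 were called higher (590 of 10276 genes were in rods) and the median log2 ratio was 0.66. Traf4 had 12 and 24 UMIs over cones (1.09, 0.523 to 2.39), Rap2b 9 and 17 (1.03, 0.433 to 2.61) and Sulf2 0 and 9, too few for a call, and their ratios in rods were 1.90, 1.76 and 2.57.

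**Figure D4:**
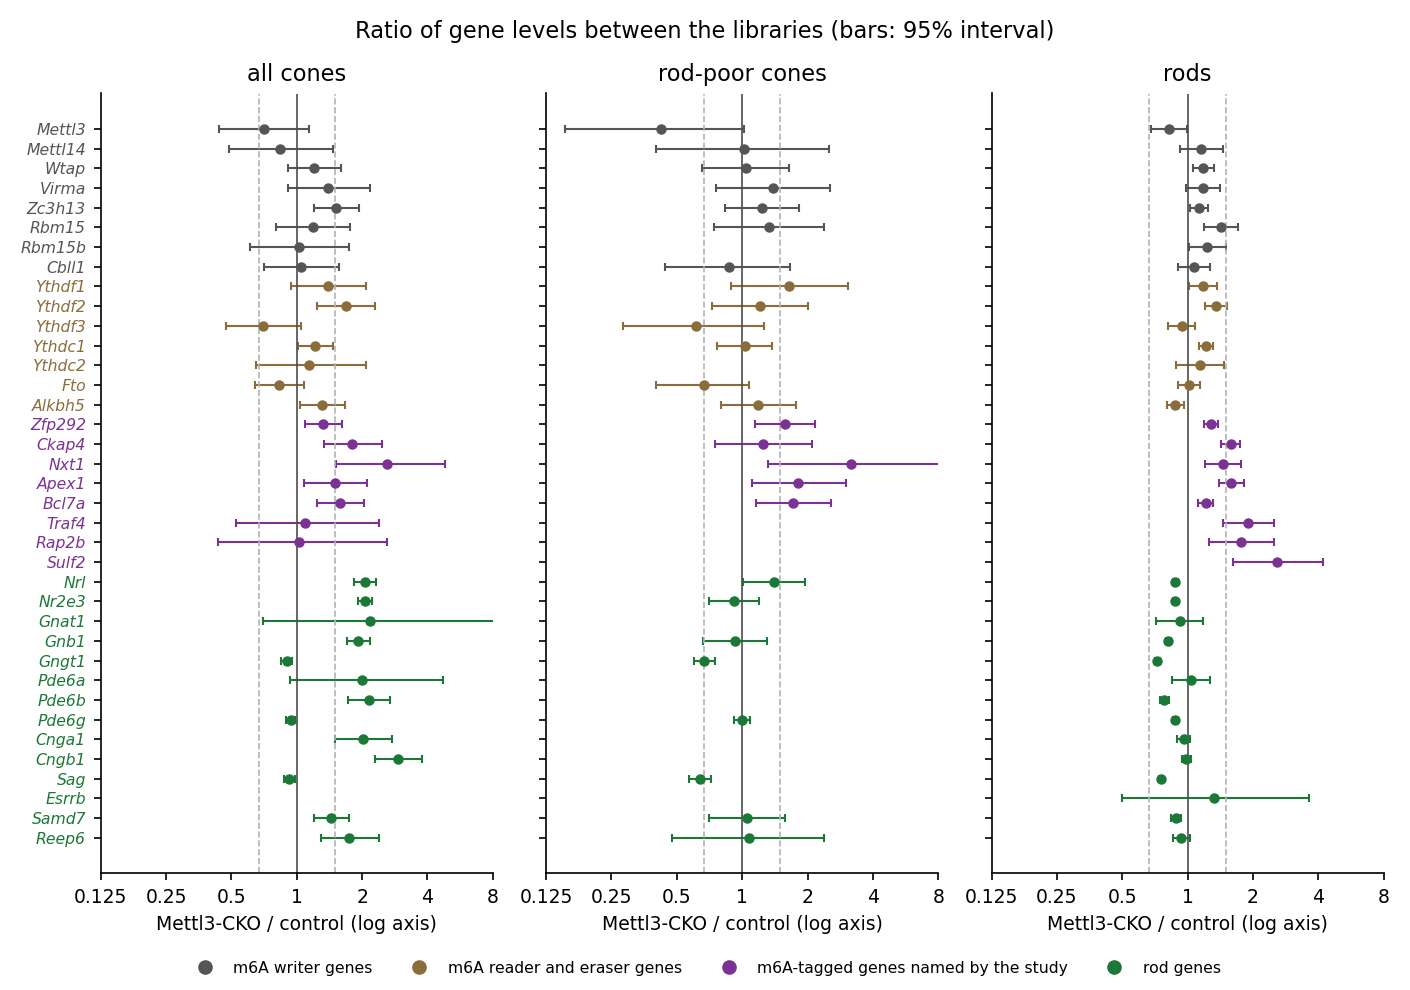
Ratio of the level in the Mettl3-CKO over the control library (horizontal log axis) in all cones, rod-poor cones and rods, for m6A writer, reader and eraser genes, the m6A-tagged genes named by the study and rod genes with at least 20 UMIs; bars are 95% intervals, drawn no further than the axis ends, and dashed lines mark the size of a call. Rod genes such as Cngb1 (2.93) lie right of 1 in all cones but not in rods (0.985), while Zfp292, Apex1 and Bcl7a lie right of 1 in every panel.

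Targets of p53 and genes that respond to dissociation showed few calls. Of 13 p53 targets 7 reached 50 UMIs, 1 was called higher and 0 lower, with a median log2 ratio of 0.03. Cdkn1a, the cell cycle inhibitor p21, was at 17.1 CPM (15 UMIs) and 65.5 CPM (106 UMIs), a ratio of 3.84 (2.23 to 7.11), and 1 Mettl3-CKO cell held 34.9% of these UMIs. Its ratio was 2.99 (1.24 to 7.94) in rod-poor cones and 3.77 (2.97 to 4.82) in rods. Of 15 dissociation response genes 12 reached 50 UMIs and 1 was called higher, Dusp1 (1.71, 1.20 to 2.47). Fos was at 1123 and 1258 CPM (1.12, 1.04 to 1.21) and Egr1 at 623 and 540 CPM (0.867, 0.778 to 0.967).

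Markers of other retinal cells were low in cones, with the exceptions named here. Microglial markers summed to 12.5 CPM in control cones, where 6 of 7 were at 0 and C1qa gave all 11 UMIs, and to 9.89 CPM in Mettl3-CKO cones, where C1qc, Cx3cr1 and Aif1 were at 0. The 7 amacrine markers summed to 48.9 and 69.8 CPM, most of it Slc6a9, with Gad1 at 0 and 1 UMI. The 9 bipolar markers summed to 240 and 229 CPM. Of these Cabp5 gave 149 and 140 CPM, which stood far above the 1.49 and 6.62 CPM in rods. Isl1, a factor of bipolar cells, had 32 UMIs in 4 control cones and 14 in 1 Mettl3-CKO cone. The 9 Müller glia markers summed to 623 and 983 CPM in cones and to 643 and 926 CPM in rods. Of these 5 reached 50 UMIs and 4 were called higher, beside 7.78% of all genes. The minimum was counted over both libraries together. Glul (26 and 79 UMIs in cones) and Vim (18 and 62) reached it mostly through the Mettl3-CKO library, which favours a high ratio. Apoe, the lipid carrier that microglia-like cells held at the highest level of these lists, was at 456 and 722 CPM in cones (1.58, 1.41 to 1.78) and had a ratio of 1.60 in rods. Sox9, a glial and progenitor factor, was at 17.1 and 43.3 CPM (2.54, 1.44 to 4.77), and 1 Mettl3-CKO cell held 38.6% of its UMIs.

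Markers of neurogenic precursors differed in both directions. Of 8 neurogenic precursor markers 6 reached 50 UMIs, 2 were called higher and 1 lower. Sox4 was at 367 and 705 CPM (1.92, 1.70 to 2.18) and Sox11 at 26.1 and 75.4 CPM (2.88, 1.84 to 4.72), both of them factors of young neurons. Their ratios in rod-poor cones were 2.07 (1.74 to 2.46) and 4.69. Atoh7, a factor of early neurogenesis, was at 44.3 and 26 CPM (0.585, 0.370 to 0.93), with 25.6% of its control UMIs in 1 cell and a ratio of 1.14 (0.572 to 2.24) in rod-poor cones. Of the cell cycle genes, Pcna, which is also used in DNA repair, had a UMI in 40 of 98 and 56 of 115 cones. Top2a, of dividing cells, had 1 UMI in control cones and 45 in Mettl3-CKO cones, 66.7% of them in 1 cell. The per-cell sum of 10 cell cycle genes had a median of 73.9 and 96.9 CPM in all cones. In rod-poor cones the median was 70.1 and 118 CPM, and the highest cell held 553 and 5033 CPM.

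The largest ratios over all genes, taken by a fixed number in each direction, rested in part on single cells and on the sex-linked RNA of the libraries. Xist had 2 UMIs in control and 2135 in Mettl3-CKO cones, and the Y-linked Ddx3y was at 71.6 and 28.4 CPM (0.397, 0.265 to 0.590). After Xist and its antisense gene Tsix the highest ratios were those of Pcp4, Mt1, Miat, Ccnd1, Id1, Pcp2, Plppr3 and Apobec2. The minimum was counted over both libraries together, so these genes reached it mostly through the Mettl3-CKO library (Pcp4 with 2 and 51 UMIs, Mt1 with 3 and 53). Ccnd1, cyclin D1 of progenitors, was at 12.5 and 114 CPM (9.09, 4.96 to 18.5), with 33.2% of the Mettl3-CKO UMIs in 1 cell. Its ratio was 5.28 without predicted doublets, 99.6 in rod-poor cones (2 and 150 UMIs) and 1.12 in rod-rich cones. Miat, a long noncoding RNA, was at 4.55 and 43.3 CPM (9.51) with 58.6% in 1 cell, and its ratio was 2.0 without predicted doublets and 2.30 as a mean of per-cell CPM. Pcp4, a calmodulin regulator, was at 2.27 and 31.5 CPM with 47.1% in 1 cell. Plppr3 and Apobec2 were spread more evenly, with 10.4% and 10.6% in the leading cell.

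The lowest ratios were those of Zfhx3, Abi3, Cdk5rap1, Elovl6, Meg3, Cxxc1, Ddx3y, Pfkm, Cep41 and Slc29a4. Meg3 (ENSMUSG00000021268, chr12:109541001-109571726), a maternally expressed long noncoding RNA, rested on the most UMIs of these, 1217 and 877. It was at 1383 CPM in control and 542 CPM in Mettl3-CKO cones, a ratio of 0.392 (0.359 to 0.428), with no more than 4.79% of the UMIs in 1 cell. Its ratio was 0.426 (0.369 to 0.491) in rod-poor cones, while in rods, at 98.0 and 158 CPM, it was 1.62 (1.46 to 1.80). Elovl6, a fatty acid elongase, was at 108 and 42.0 CPM (0.389, 0.281 to 0.537), and at 0.703 in rod-poor cones. Abi3, a regulator of actin, was at 50 and 17.3 CPM (0.346, 0.207 to 0.568), with 0.332 in rod-poor cones from 24 and 6 UMIs. Abi3 overlaps Gngt2 on the other strand, so its UMIs cannot be told apart from those of Gngt2 if strand was not used in counting. Zfhx3, a homeobox factor, was at 50 and 16.7 CPM, 43.2% of its control UMIs lay in 1 cell, and its ratio was 1.58 among cones of at most 10000 UMIs.

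In rod-poor cones the lowest ratios were those of Acot13, Ube2h, Mtfr1, Aspscr1, Arr3, Meg3, Tspan17, Cep170b, Pygm and Rbm10. This ranking was chosen after the values were seen. It required the same direction under per-cell CPM, but not under median-of-ratios scaling or without predicted doublets. Pygm, the muscle form of glycogen phosphorylase, was at 109 and 48.9 CPM (0.451, 0.253 to 0.770). Acot13, a thioesterase, was at 85.3 and 25.7 CPM (0.302, 0.135 to 0.609). The highest were, besides Xist, those of Ccnd1, Miat, Hist1h2ap, Hes5, Ndufa4l2, Sox9, Zfp36l2, Hist1h2ae and Gas1, and 36.5% to 69.5% of the Mettl3-CKO UMIs of each of the latter 9 lay in 1 cell. Of the 3551 genes counted in both sets, 115 were called higher in all cones and 188 in rod-poor cones, of which 64 were shared (55.7% and 34.0%). For lower genes these numbers were 92 and 191, with 43 shared (46.7% and 22.5%).

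Set against rods of the same library, cones held phototransduction genes of their own at many times the level, in both libraries. A gene was called here at a ratio of at least 2, or at most 1/2, in both libraries, which held for 373 of 10687 genes higher in cones (3.49%) and 230 lower (2.15%). Since both kinds of cell were chosen on their genes, these ratios are a description. Guca1a stood 431 times above rods in the control and 199 times in the Mettl3-CKO library, the exchanger Slc24a2 103 and 69.7 times, and Cnga3 55.0 and 21.2 times. Rcvrn (8.16 and 5.59), Gnb3 (3.84 and 3.44) and Gngt2 (2.75 and 2.37) were nearer to rods, and 8 of the 12 phototransduction genes were called higher. Of the transcription factors 4 of 15 were called higher, among them Sall3 (33.7 and 15.7), Thrb (7.45 and 6.83) and Lhx4 (3.95 and 2.44). Hk2 (11.2 and 6.22) was the 1 of 18 glycolysis genes called, and Cabp4 (10.1 and 6.95), Cacna1f (3.26 and 2.54) and Slc17a7 (2.18 and 2.05) were the 3 of 15 synaptic genes.

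Genes outside the lists also marked the cones. Among the highest ratios over rods were those of Syndig1l, Guca1a, Arhgdib, Spint1, Krt18, Kcne2, Slc24a2, Fzd10, Cckbr, Slc24a4, Ppm1j, Fam19a3, Klhl4 and Shank2. Krt18, a keratin of simple epithelia, was at 750 CPM in control cones and 382 CPM in Mettl3-CKO cones, against 4.30 and 3.40 CPM in rods. Its ratio between the libraries was 0.509 (0.455 to 0.569) in all cones and 0.596 (0.498 to 0.711) in rod-poor cones. Syndig1l was at 176 and 117 CPM against 2 UMIs in the rods of each library, and Kcne2, a potassium channel subunit, at 215 and 114 CPM. Arhgdib overlaps Pde6h on the other strand, so its UMIs cannot be told apart from those of Pde6h if strand was not used in counting. The lowest were those of Pcdh11x, Nhlh2, Nckap5, Perp, Prox1os, Gucy2f, Cd4, Prdm13, Scrt2 and Pdlim3. The minimum was counted over cones and rods together, so these genes reached it through rods and the highest ones through cones. Some intervals reached past 1, as for Gucy2f in the control library (0 to 1.09). Nhlh2, a factor of young neurons, had 1 and 4 UMIs in cones, and Prdm13, a factor of amacrine cells, 0 and 7.

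**Figure D5:**
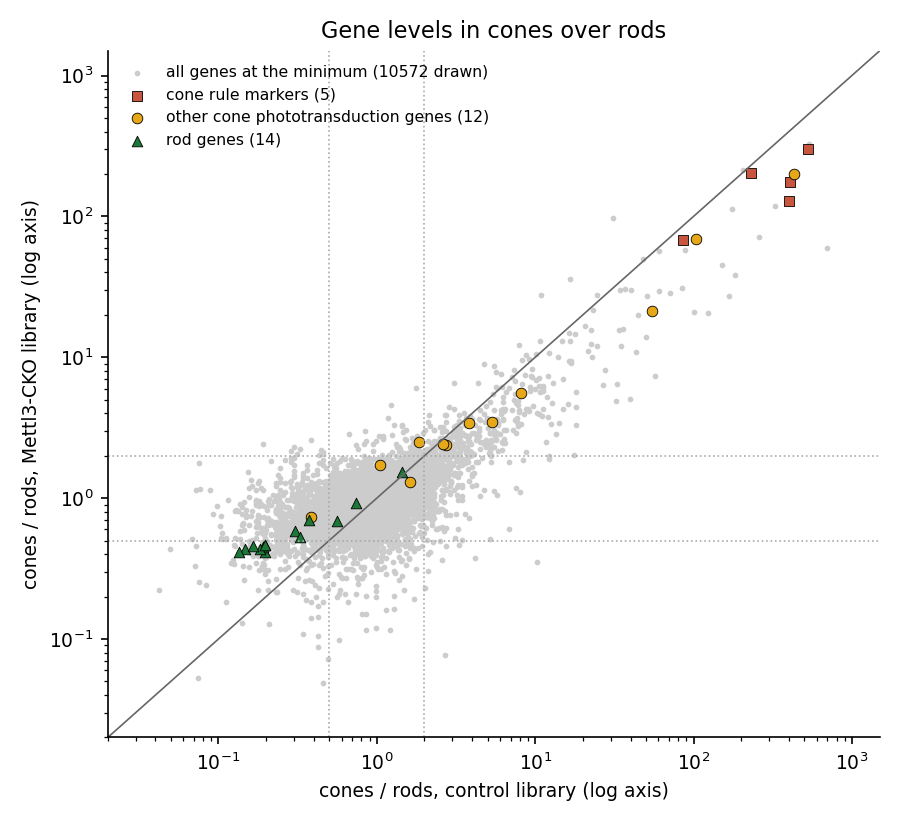
Ratio of the level in cones over rods in the control (horizontal) and the Mettl3-CKO library (vertical), both log axes, 1 point per gene with a ratio above 0 in both (10572 genes); dotted lines mark the ratios of 2 and 1/2 and the solid line equal ratios. Cone genes lie below the line at the upper right (Pde6h 528 and 303) and rod genes above it at the lower left (Nrl 0.196 and 0.461).

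Of 14 dissociation response genes that reached the minimum 4 were called higher in cones than in rods, among them Socs3 (11.9 and 5.21) and Egr1 (6.24 and 3.65). Of the neurogenic precursor markers, Atoh7 (5.26 and 2.59) and Dll1 (2.95 and 2.34), a ligand of Notch, were called higher in cones, at levels of 44.3 and 26 CPM and of 23.9 and 23.5 CPM. Clu, clusterin, of the Müller list, had ratios of 3.62 and 2.78.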

How the data were processed

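Mouse retina at p7 was profiled by 10x Chromium Single Cell 3′ sequencing. The deposited UMI counts per gene and cell were made by the authors with fastp at default settings and Cell Ranger 3.1.0 on GRCm38 (mm10), with Seurat 3.1 used downstream, as given in the submitters' processing notes and methods. The matrices used here end before their last barcodes, so only complete cells entered (3994 of 5995 control and 3109 of 6992 Mettl3-CKO barcodes), and the rest was not analysed here.

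UMIs of the 13 mitochondrial genes were left out of totals. UMIs were summed over the cones of a library and divided by their total (CPM). Intervals were exact Poisson for levels, exact conditional binomial for ratios, Clopper-Pearson for shares and Katz log for ratios of shares, all at 95% and for counting error only, since UMIs do not sample other animals. With 1 library per genotype nothing was tested, and calls are sizes. The members and gene lists were chosen with earlier results of these data known.

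Beyond the lists, genes were named by rule. The first took the 10 highest and 10 lowest ratios between libraries among genes that had 50 UMIs or more, were detected in 10% or more of the cones of either library, and kept their direction when scaled by median-of-ratios, averaged over per-cell CPM or counted without predicted doublets. The second took the 15 highest and 10 lowest ratios of cones over rods by the library nearest to 1, without the genes that chose cones or rods. Predicted and mitochondrial genes were not named, and some genes that met these rules or were listed are not reported here.

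Doublets were scored with scrublet in scanpy 1.11.5. Its automatic threshold marked only 3 (0.0751%) and 7 (0.225%) cells, so, after seeing this, the highest scores at 0.8% per 1000 barcodes were taken, 192 (4.80%) and 174 (5.59%) cells. Alternatives were other marker, depth and UMI minimums, other scalings, thinning to 1000 UMIs, and leaving out doublets or rod-rich cones. Those without Xist and Y-linked pairs, at most 10000 UMIs, or Nrl and Nr2e3 under 1000 CPM were chosen after seeing the data.

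Of 30905 gene IDs 30766 were found in GENCODE M21, and 109 of 227 named genes overlap another gene there. Whether counting used strand is not given in the sources used here. Promoters came from RefSeq. Python 3.11.15, numpy 2.4.6, scipy 1.17.1, pandas 2.3.3 and matplotlib 3.10.9 were used, and the comparisons were checked on simulated data.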

Additional observations from a re-analysis of the deposited data

Results flagged for a closer look

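Most rod genes had a ratio above 1 in cones and below 1 in rods. Of the 12 rod genes that reached the UMI minimum in cones, 9 had a ratio above 1 there. In rods 13 of the 14 that reached it had a ratio below 1. Sag, Pde6g and Gngt1 were below 1 in both. The genes given next are among those whose interval lay above 1 in cones and below 1 in rods. The ratio of Mettl3-CKO over control in cones was 1.92 for Gnb1, 2.14 for Pde6b, 2.06 for Nrl and 2.07 for Nr2e3, each with an interval above 1. In rods the ratios of the same genes were 0.814, 0.782, 0.877 and 0.871, each with an interval below 1. With 1 library per genotype the difference between cones and rods was not tested, and Pde6b, Nrl and Nr2e3 are among the genes that chose the rods. Beside these ratios, 63.5% of Mettl3-CKO and 33.7% of control cones held at least 4 rod markers, and 27.0% of Mettl3-CKO cones held Xist and Y-linked UMIs in 1 cell. The part of either in the ratios was not tested.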

How the results depend on the processing

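No paired analysis was possible because each genotype had 1 library with no replicate number, and for the same reason no replicate could be left out. The ratio of cone shares (1.49) kept its direction in 9 of 12 alternatives, at 1.09 when thinned, and turned in the others, to 0.820 without rod-rich cones, 0.868 at no more than 10000 UMIs and 0.828 under the Nrl and Nr2e3 limit. The counts of genes called higher and lower (537 and 257) were 1105 and 568 at a minimum of 20 UMIs, 247 and 122 at 100 UMIs, and 124 and 160 at no more than 10000 UMIs. The count called higher was 188 in rod-poor cones, 310 without Xist and Y-linked pairs and 216 under the Nrl and Nr2e3 limit. The calls of cones over rods were 195 higher and 80 lower at 200 UMIs. Cones with both opsins were 1.0% and 0% when thinned.

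The median log2 ratio of rod genes (0.98) was -0.11 in rod-poor cones and 0.010 under the Nrl and Nr2e3 limit. That of Müller markers (0.72) was 1.74 under the limit. That of bipolar markers (1.24) was 0.53 in rod-poor cones and 0.17 under the limit. It rested on 2 genes in all cones, Pcp2 (6 and 66 UMIs) and Cabp5 (131 and 226), and on 1 gene in rod-poor cones. Pcp2 reached the minimum mostly through the Mettl3-CKO library, and the ratio of Cabp5 was below 1. The 9 bipolar markers summed to 240 and 229 CPM in all cones. Ratios of single genes that turned in rod-poor cones were those of Slc6a9 (0.797), Gnb1 (0.929), Cnga1 (0.332), Atoh7 (1.14), Cngb1 (0.797), Nr2e3 (0.919) and Aldoc (1.06). At no more than 10000 UMIs Glul (0.990), Ythdf2 (0.897), Zfhx3 (1.58) and Aldoc (1.08) turned, and under the limit Cnga1 (0.377), Nr2e3 (0.70) and Aldoc (1.17). Rod-poor cones were chosen on rod markers, among them Nrl, Nr2e3, Gnat1, Pde6b and Sag, and the limit used Nrl and Nr2e3. The lower rod gene ratios in these sets follow in part from that choice and are a description. Smaller UMI minimums admit more genes and smaller sets of cells fewer, and otherwise the cause was not tested. Of 57 named genes, none turned under per-cell CPM or at least 4 markers. The genes named by the first rule had been kept only if they held their direction under per-cell CPM. Other UMI minimums leave the ratio of a gene as it is, and median-of-ratios scaling changes all ratios by the same small factor. Neither could turn these genes, so they are no check of direction. Genes with few UMIs, such as Opn1mw and Sulf2, were too shallow to compare.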
